A study of Mus musculus with 6 samples.

Results

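The acyl-CoA dehydrogenases and the electron transfer flavoproteins carry out the first oxidation of mitochondrial fatty acid breakdown and pass its electrons on. The 9 genes of this report are Acadvl, Acadl, Acadm, Acads, Acadsb, Acad9, Etfa, Etfb and Etfdh. They were chosen by name from 22180 genes measured in colorectal tumours grown in mice, in white adipose or in non-adipose tissue. All 9 were measured, each by 1 probe set annotated to that gene alone.

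In each round of beta-oxidation an acyl-CoA dehydrogenase takes electrons from the fatty acyl chain onto its bound FAD. The dehydrogenases differ mainly in the chain length they accept. The electrons pass to the electron transfer flavoprotein, a heterodimer of the Etfa and Etfb products, and from it to the Etfdh product, which reduces ubiquinone in the inner mitochondrial membrane. White adipose tissue is the main fat store of the body and releases fatty acids that neighbouring cells can burn by this route.

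The study compared colorectal cancer (CRC) injected into white adipose tissue with the same kind of cancer injected into non-adipose tissue. There were 3 tumours per site, from 3 mice per group, collected at 1 to 1.5 cm3 and hybridised to 1 Affymetrix whole-transcript array each. The cancer line, mouse strain, animal age and the non-adipose site are not stated in the labels, and no drug or genetic change is named for either group. The values below are the deposited signals, taken as log2, and a difference is white adipose minus non-adipose.

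The arrays correlated across genes at 0.983 to 0.995. White adipose replicate 1 stood apart by skin genes. The keratin gene Krt10 read 11.6 there and 5.90 to 6.16 on the other arrays. Skeletal muscle markers were high in non-adipose replicates 1 and 3, where the myosin gene Myh4 read 6.48 and 8.27 against 3.91 to 4.35 on the other arrays. Adipoq, the adipocyte hormone gene, read 4.14, 4.14 and 4.14 in non-adipose and 4.10, 4.13 and 4.27 in white adipose tumours, near percentile 15.6 of all genes by mean signal. The keratin gene Krt8, an epithelial marker, read 9.46 to 10.0, whereas the intestinal epithelial genes Epcam (4.61 to 5.29), Vil1 (4.39 to 4.88), Cdx2 (5.08 to 5.63) and Krt20 (4.65 to 4.80) read low in both groups. Adipoq, Epcam, Vil1, Cdx2 and Krt20 were singled out as defining genes after their values were seen. Krt18, Cdh1, Muc2, Krt19, Cdx1 and Cdh17, from the same intestinal epithelial list, were also added after their values were seen. Mean signals in non-adipose and white adipose tumours were 9.41 and 9.59 for Krt18, 7.10 and 7.13 for Cdh1, and 6.08 and 6.04 for Muc2. They were 5.51 and 5.67 for Krt19, 5.28 and 5.13 for Cdx1, and 4.79 and 4.91 for Cdh17. Krt18 thus read high in both groups, as Krt8 did.

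Promoter sequences are shown for the 3 members that held a searched regulator motif other than the common GC and CCAAT boxes, and for Etfb, which had the largest difference between sites and was added after its values were seen. The RefSeq promoter table (build GRCm38.p6) had entries for 8 of the 9 members, and the 250 bases before each start were searched on both strands. Capitals mark AGGTCA, the core motif of nuclear receptors such as the PPARs, and GCGCATGCG, the core motif of nuclear respiratory factor 1. In Etfb alone they mark CCAAT.
Etfdh (chr3:79628768-79629017, minus strand): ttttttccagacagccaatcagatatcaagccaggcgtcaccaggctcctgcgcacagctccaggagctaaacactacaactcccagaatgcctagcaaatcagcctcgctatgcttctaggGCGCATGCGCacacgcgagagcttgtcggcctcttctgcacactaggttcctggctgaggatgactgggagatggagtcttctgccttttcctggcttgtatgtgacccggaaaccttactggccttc
Acadm (chr3:153944644-153944893, minus strand): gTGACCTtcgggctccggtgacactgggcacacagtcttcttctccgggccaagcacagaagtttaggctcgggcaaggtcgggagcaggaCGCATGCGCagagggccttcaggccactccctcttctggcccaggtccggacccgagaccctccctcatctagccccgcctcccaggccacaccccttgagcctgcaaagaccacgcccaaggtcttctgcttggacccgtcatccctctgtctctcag
Acadvl (chr11:70015429-70015678, minus strand): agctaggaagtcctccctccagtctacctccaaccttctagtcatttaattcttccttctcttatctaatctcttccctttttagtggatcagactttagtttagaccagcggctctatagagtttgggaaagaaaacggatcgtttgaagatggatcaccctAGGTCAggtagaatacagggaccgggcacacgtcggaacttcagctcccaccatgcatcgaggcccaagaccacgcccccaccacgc
Etfb (chr7:43443822-43444071, plus strand): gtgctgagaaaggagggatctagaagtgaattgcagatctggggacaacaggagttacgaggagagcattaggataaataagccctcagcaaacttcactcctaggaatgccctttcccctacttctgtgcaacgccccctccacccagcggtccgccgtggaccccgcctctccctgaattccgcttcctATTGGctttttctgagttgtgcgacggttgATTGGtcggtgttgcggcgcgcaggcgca

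GCGCATGCG was found in 2 of the 8 member promoters, Etfdh and Acadm, and in 1.45% of the 32851 promoters in the table. In Etfdh it lay in overlapping copies on both strands that began 128 and 127 bases before the start. In Acadm it lay on the opposite strand, 159 bases before the start. AGGTCA was found in Acadm and Acadvl and in 14.0% of all promoters. CCAAT was found in Etfa, Etfb and Etfdh and in 33.9% of all promoters, and the GC box GGGCGG in Acadl, Acads and Acadsb and in 32.7%. TCAAGGTCA, which contains AGGTCA, and the E-box CACGTG were in none of the 8 windows and in 0.387% and 6.02% of all promoters. These matches describe letters in a window and say nothing of binding.

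The comparison asked whether the genes of this electron route differed between tumours of the 2 sites. The electron transfer genes Etfb and Etfdh read higher in every white adipose tumour than in any non-adipose tumour, by 1.13-fold and 1.10-fold, a separation seen in that direction for 3.34% of all genes. The third electron transfer gene, Etfa, overlapped between sites, with a mean difference of 0.039. The 6 dehydrogenase genes overlapped between sites, 4 with a higher and 2 with a lower mean in white adipose tumours. None of the 9 passed limma's test at an adjusted p of 0.05 over all genes, and 0% of the 22180 genes did. At an unadjusted p under 0.05 there was 1 member, Etfb, against 1.66% of all genes that were higher at that level and 3.79% in either direction. Over all genes 368 were higher and 473 lower at that level, and 258 and 614 with array medians subtracted. In whole tumours a change in RNA per cell and a change in the share of a cell type cannot be told apart.

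**Figure D1:**
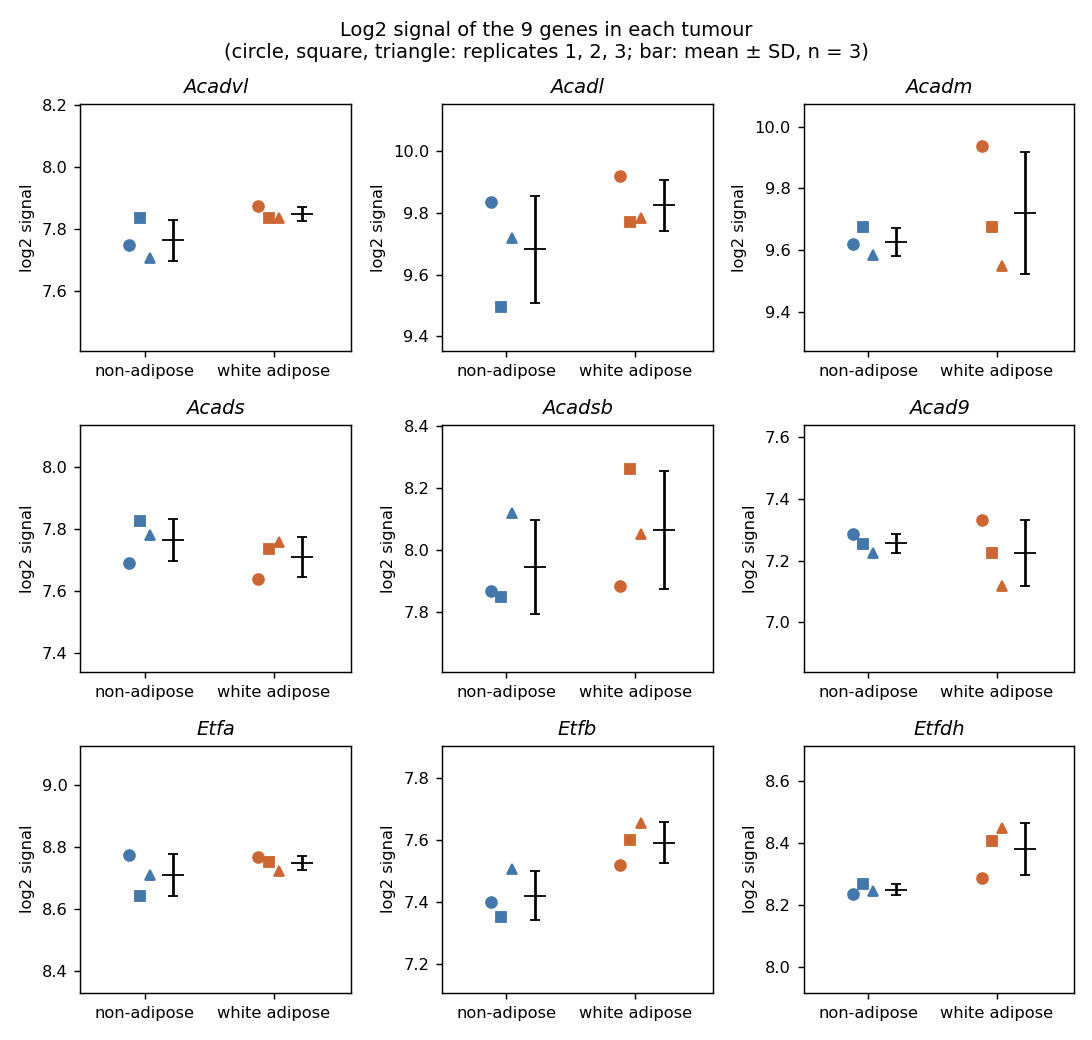
Log2 signal (vertical axis, 0.8 units in each panel) of the 9 genes in 3 non-adipose (blue) and 3 white adipose (orange) tumours, with circle, square and triangle for replicates 1, 2 and 3 and bars for the mean ± SD. The groups separate for Etfb and Etfdh and overlap in the other panels.

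Etfb encodes the beta subunit of the electron transfer flavoprotein. It read 7.40, 7.35 and 7.51 in non-adipose replicates 1, 2 and 3 and 7.52, 7.60 and 7.66 in white adipose replicates 1, 2 and 3. All 3 white adipose values lay above the non-adipose ones, the nearest pair being 7.51 and 7.52. The means were 7.42 ± 0.079 (SD, n = 3) and 7.59 ± 0.068 (SD, n = 3). The difference was 0.17 (SE 0.071), with a 95% interval from 0.00040 to 0.35 and a limma adjusted p of 0.936. Its unadjusted p of 0.0496 became 0.0676 with array medians subtracted. By absolute difference Etfb exceeded 81.8% of all genes.

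Etfdh encodes the ubiquinone oxidoreductase that empties the flavoprotein. It read 8.24, 8.27 and 8.25 in non-adipose and 8.29, 8.41 and 8.45 in white adipose tumours. The non-adipose tumours were close together, and white adipose replicate 1 lay just above them. The difference was 0.13 (SE 0.065), with a 95% interval from -0.027 to 0.29 and a limma adjusted p of 0.936. Without white adipose replicate 1 it was 0.18 and its unadjusted p moved from 0.0897 to 0.0223.

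Etfa encodes the alpha subunit, the partner of Etfb in the heterodimer. It read 8.77, 8.64 and 8.71 in non-adipose and 8.77, 8.75 and 8.72 in white adipose tumours, so the groups overlapped. The difference was 0.039 (SE 0.061), with a 95% interval from -0.11 to 0.19 and a limma adjusted p of 0.951. Without non-adipose replicate 2, the lowest array, it was 0.0048, and without non-adipose replicate 1 it was 0.072.

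The balance of the 2 subunit genes was compared within each array as log2 Etfb minus log2 Etfa, whose absolute level depends on the probe sets and has no meaning by itself. It was -1.37, -1.29 and -1.20 in non-adipose and -1.25, -1.15 and -1.07 in white adipose tumours. White adipose replicate 1 lay within the non-adipose range. The sites differed by 0.13, with a two-sided exact permutation p of 0.2 where 0.1 is the smallest that 3 against 3 arrays can give. This design could not pass 0.05. The difference was above 0 whichever array was left out, from 0.090 to 0.18.

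The long-chain dehydrogenase genes come first in the order of substrate length. Acadvl, whose membrane-bound product takes very long chains, read 7.75, 7.83 and 7.71 in non-adipose and 7.87, 7.83 and 7.83 in white adipose tumours. White adipose replicates 2 and 3 and replicate 2 from the other site carried the same deposited value, and the groups overlapped only through this tie. The difference was 0.085 (SE 0.061), with a 95% interval from -0.063 to 0.23 and a limma adjusted p of 0.936. It was 0.056 without non-adipose replicate 3.

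Acadl, the long-chain enzyme, read 9.84, 9.49 and 9.72 in non-adipose and 9.92, 9.77 and 9.78 in white adipose tumours. Non-adipose replicate 2 was low, and non-adipose replicate 1 lay above 2 of the 3 white adipose arrays. The difference was 0.14 (SE 0.10), with a 95% interval from -0.11 to 0.39 and a limma adjusted p of 0.936. It fell to 0.047 when non-adipose replicate 2, the lowest array, was dropped. Dropping non-adipose replicate 1 gave 0.22, and dropping the first white adipose tumour gave 0.093.

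Acadm, the medium-chain enzyme, read 9.62, 9.68 and 9.59 in non-adipose and 9.94, 9.68 and 9.55 in white adipose tumours. White adipose replicate 1, the array with the high skin keratins, was the high one, and the remaining 5 arrays lay between 9.55 and 9.68. The difference was 0.093 (SE 0.11), with a 95% interval from -0.17 to 0.36 and a limma adjusted p of 0.938. It turned to -0.015 when that array was left out. Leaving out white adipose replicate 3, the lowest array, gave 0.18. The part of the skin signal in this value was not tested.

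Acads, the short-chain enzyme, had a lower mean in white adipose tumours. It read 7.69, 7.83 and 7.78 in non-adipose and 7.64, 7.74 and 7.76 in white adipose tumours. The groups overlapped, and replicate 1 was the lowest array at both sites. The difference was -0.055 (SE 0.068), with a 95% interval from -0.22 to 0.11 and a limma adjusted p of 0.938. It ran from -0.093 without non-adipose replicate 1 to -0.019 without white adipose replicate 1.

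Acadsb, the short/branched-chain enzyme, acts in the breakdown of isoleucine. It read 7.87, 7.85 and 8.12 in non-adipose and 7.88, 8.26 and 8.05 in white adipose tumours. White adipose replicates 2 and 3 were high together with the third non-adipose tumour, and the other 3 arrays were lower. The difference was 0.12 (SE 0.12), with a 95% interval from -0.18 to 0.42 and a limma adjusted p of 0.936. Dropping white adipose replicate 2 gave 0.021. Dropping either replicate 1 of the same site or non-adipose replicate 3 gave 0.21. T cell markers, chosen for this remark after their values were seen, divided the arrays in the same way, with list means of 6.71, 6.49 and 6.35 in those 3 arrays and 5.84, 5.53 and 6.06 in the others, and their part in the Acadsb values was not tested.

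Acad9 is a relative of Acadvl whose product is needed to assemble respiratory complex I. It read 7.28, 7.26 and 7.23 in non-adipose and 7.33, 7.23 and 7.12 in white adipose tumours. The non-adipose values lay inside the white adipose range. The difference was -0.031 (SE 0.073), with a 95% interval from -0.21 to 0.15 and a limma adjusted p of 0.969. It turned to 0.023 when white adipose replicate 3, the lowest array, was dropped, and dropping the highest, replicate 1 of that site, gave -0.084.

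Across the 9 genes the median difference was 0.093, against -0.00043 over all genes, and 7 had a higher mean in white adipose tumours, as 49.7% of all genes did. The 9 genes were fixed by name with earlier results in view, so these counts describe the list and carry no test. The 95% intervals together reached from 0.859 to 1.34 as a ratio of white adipose over non-adipose signal. The smallest standard errors were those of Acadvl and Etfa, each at 0.061, against a median of 0.0972 over all genes.

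**Figure D2:**
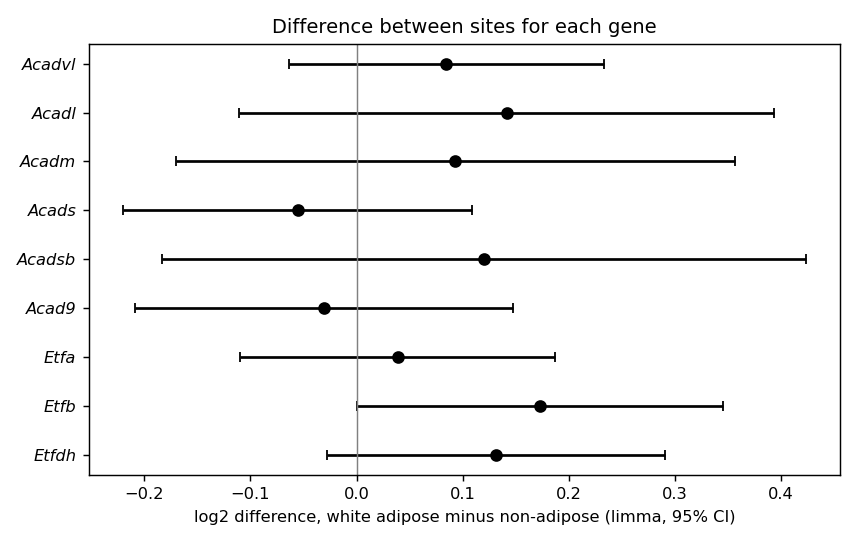
Log2 difference between sites (horizontal axis) for each gene (vertical axis), with points for limma's estimate and bars for its 95% confidence interval. Every interval except that of Etfb includes 0, and the lower bound of Etfb lies at 0.00040.

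With each array left out in turn, the members differed in how far they moved. Etfb stayed between 0.14 and 0.22 and Etfdh between 0.097 and 0.18 whichever array was left out. Acadm and Acad9 changed sign, and Acadsb moved between 0.021 and 0.21. At an unadjusted p under 0.05 there were 2 members without white adipose replicate 1, where 1800 genes in all were at that level in place of 841. There were 0 members at that level when non-adipose replicate 1 or 2, or white adipose replicate 2 or 3, was dropped.

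**Figure D3:**
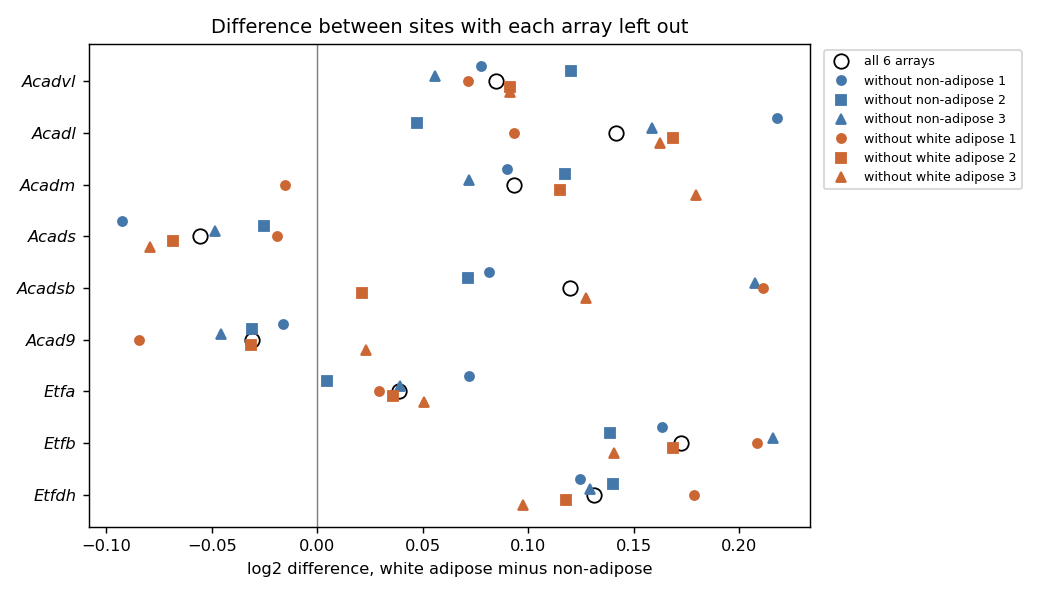
Log2 difference between sites (horizontal axis) for each gene (vertical axis) with all 6 arrays (open circle) and with each array left out (blue for a non-adipose, orange for a white adipose array). The points of Etfb and Etfdh stay right of 0 and those of Acadm and Acad9 cross it.

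The members did not form 1 common pattern over the 6 tumours. Of the 36 pairs, 22 correlated above 0 and 14 below 0, with a median Pearson r of 0.095 and a range from -0.92 to 0.95. None passed after Benjamini-Hochberg adjustment over the 36 pairs. The closest pair was Acadl and Etfa, with r = 0.95 (exact permutation p = 0.00833, adjusted p = 0.15) and Spearman's rho = 0.89 (exact permutation p = 0.0333, adjusted p = 0.4), and r = 0.86 without non-adipose replicate 2 and white adipose replicate 1.

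Etfb and Etfdh, which act in turn, followed with r = 0.85 (exact permutation p = 0.0514, adjusted p = 0.463) and rho = 0.83 (exact permutation p = 0.0583, adjusted p = 0.525). Their r was 0.86 without non-adipose replicate 2 and white adipose replicate 3 and 0.56 within sites, after each site's mean was subtracted. Acadm and Acad9 were the third, with r = 0.77 (exact permutation p = 0.106, adjusted p = 0.633) and rho = 0.70 (exact permutation p = 0.133, adjusted p = 0.817). That relation rested on white adipose replicates 1 and 3, without which r was -0.011. Acadl and Acads, singled out after their values were seen, ran opposite, with r = -0.92 (exact permutation p = 0.00833, adjusted p = 0.15) and rho = -0.94 (exact permutation p = 0.0167, adjusted p = 0.3), and r = -0.93 without non-adipose replicate 2 and white adipose replicate 1.

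The mean of the 9 genes was 8.27, 8.24 and 8.29 in non-adipose and 8.35, 8.36 and 8.32 in white adipose tumours. Among 17269 other genes the profiles most like it over the 6 arrays were Olig2 (r = 0.985) and Rell1 (r = 0.978), each with a rho of 1. They were the highest of that many genes over 6 points, so the values are a description.

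The genes around this step were read from lists of the same pathway. Other flavoprotein enzymes of the family or its neighbourhood, including the oxidase Pipox, numbered 9. Of these, 8 had a higher and 1 a lower mean in white adipose tumours, with a median of 0.043. Acad11, a further acyl-CoA dehydrogenase, read 5.47, 5.60 and 5.59 in non-adipose and 5.72, 5.80 and 5.69 in white adipose tumours, without overlap, and differed by 0.18 (SE 0.067). Acad10, another relative, differed by 0.20 (SE 0.13) and overlapped. None of these genes, and none of the other 6 lists, passed the adjusted threshold in either direction, and their smallest limma adjusted p was 0.936.

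Upstream, the carnitine shuttle brings long chains into mitochondria. Of 6 measured genes, 4 had a higher and 2 a lower mean, with a median of 0.096. Cpt1a, its entry enzyme, read 8.56, 8.50 and 8.69 in non-adipose and 8.95, 8.84 and 8.69 in white adipose tumours, a difference of 0.24 (SE 0.091) with non-adipose replicate 3 and white adipose replicate 3 at the same value. Cpt2, which returns the acyl group to CoA, differed by 0.11 (SE 0.078), and by 0.046 without white adipose replicate 2.

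Downstream, the enzymes of the later steps of each round numbered 10, with 9 higher and 1 lower mean and a median of 0.039. Hadha, the alpha subunit of the trifunctional protein, differed by 0.11 (SE 0.09) and the thiolase gene Acaa2 by 0.086 (SE 0.10). Acaa2 was high in white adipose replicate 1 (7.69 against 7.34 to 7.47 on the other arrays) and turned to -0.012 without it, as Acadm did.

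Genes of the flavin cofactor and of ubiquinone, the electron acceptor, came next. Of 6 genes of FAD supply and flavoprotein maturation, 4 were higher and 2 lower, with a median of 0.019. Etfrf1, whose product removes FAD from the flavoprotein, read 7.19, 7.12 and 7.32 in non-adipose and 7.28, 7.44 and 7.39 in white adipose tumours and differed by 0.16 (SE 0.08). Etfbkmt, which methylates the Etfb product, differed by 0.24 (SE 0.15) and by 0.096 without white adipose replicate 1. Of 12 genes of ubiquinone synthesis, 8 were higher and 4 lower, with a median of 0.029. Coq9 differed by 0.089 (SE 0.064), its arrays not overlapping, and the hydroxylase gene Coq7 by -0.12 (SE 0.092).

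The partners of Acad9 in complex I assembly numbered 5, with 3 higher and 2 lower means and a median of 0.023. Ecsit read 6.55, 6.48 and 6.40 in non-adipose and 6.40, 6.18 and 6.37 in white adipose tumours and differed by -0.16 (SE 0.084). The groups did not overlap, the nearest arrays being 6.405 and 6.404. Tmem126b differed by 0.076 (SE 0.064). Groups without overlap in either direction were seen for 7.31% of all genes.

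Regulators of fatty acid oxidation numbered 11, with 4 higher and 7 lower means and a median of -0.086. Nrf1, nuclear respiratory factor 1, a factor for many nuclear genes of mitochondria, read 7.61, 7.65 and 7.49 in non-adipose and 7.47, 7.35 and 7.31 in white adipose tumours and differed by -0.20 (SE 0.075). Esrra, the estrogen-related receptor alpha gene, differed by 0.15 (SE 0.073). The groups did not overlap for Nrf1 and did for Esrra.

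**Figure D4:**
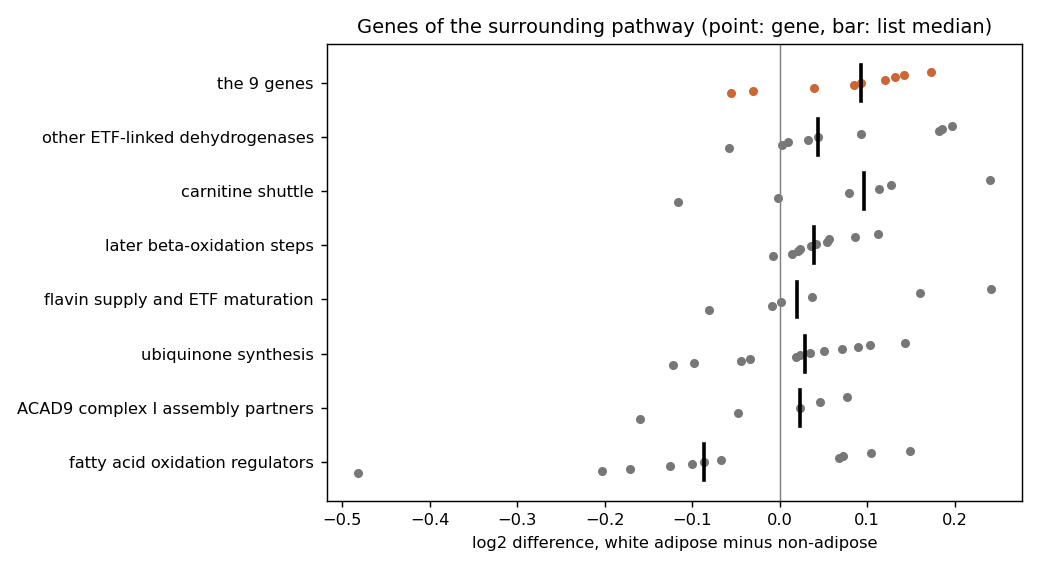
Log2 difference between sites (horizontal axis) for every measured gene of the 9 members (orange) and of 7 lists around them (grey), with a bar for each list's median. The medians lie between -0.086 and 0.096, and the members' own at 0.093.

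Adipocytes and skeletal muscle were read through their markers. White adipocyte markers averaged 5.80, 5.79 and 5.86 in non-adipose and 5.65, 5.74 and 6.07 in white adipose tumours, a difference of 0.0027, with 7 of 10 higher and a range of single differences from -0.43 (Fabp4, the fatty acid binding protein) to 0.15. Pnpla2, the lipase gene with the highest mean of that list, read 7.71, 7.85 and 7.94 in non-adipose and 7.71, 7.93 and 7.85 in white adipose tumours. White adipose replicate 3 was the highest array for this list and, among the members, for Etfb and Etfdh alone. Leaving that array out gave 0.14 for Etfb and 0.097 for Etfdh, and the part of adipocytes in these values was not tested.

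Skeletal muscle oxidises fatty acids. Its 12 markers averaged 6.44, 5.56 and 6.96 in non-adipose and 5.74, 5.61 and 5.57 in white adipose tumours, with 11 lower and 1 higher mean. Tnnc2, a troponin gene and the highest of the list, read 7.51, 7.40 and 7.90 against 7.11, 7.50 and 7.45. Brown adipocyte markers averaged 4.65 to 4.90 over the 6 arrays, and Ucp1, which defines these cells, read 4.58 to 4.85, Cox7a1 5.82 to 5.89 and Ppargc1a 3.20 to 4.47. Dio2, a deiodinase gene of that list named after its values were seen, read 4.41, 4.81 and 4.56 in non-adipose and 5.05, 4.86 and 4.97 in white adipose tumours, without overlap. Leaving out non-adipose replicate 1 or 3, the arrays with muscle signal, gave 0.16 or 0.22 for Etfb and 0.12 or 0.13 for Etfdh. Each time the other array with muscle signal stayed in, and the part of muscle in these values was not tested.

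Markers of other cell types varied between arrays. Skin epithelial markers averaged 8.26 in white adipose replicate 1, 6.10 in non-adipose replicate 3 and 5.19 to 5.33 on the other arrays. Fibroblast markers averaged 10.6 in white adipose replicate 1 and 9.92 to 10.2 elsewhere; the matrix genes Dcn and Lum read 12.3 to 12.8 and 9.32 to 11.3. Intestinal epithelial markers averaged 5.97 to 6.17 (Lgr5 4.63 to 5.68), macrophage markers 9.21 to 9.43 (C1qb 10.9 to 11.5, Mrc1 7.44 to 9.11) and endothelial markers 6.74 to 7.03 (Cdh5 8.24 to 8.85, Cldn5 5.46 to 5.67 in non-adipose and 5.76 to 5.84 in white adipose tumours). T cell markers averaged 5.53 to 6.71, with Cd3g at 5.69 to 7.91. The part of these cells in the members' values was not tested.

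**Figure D5:**
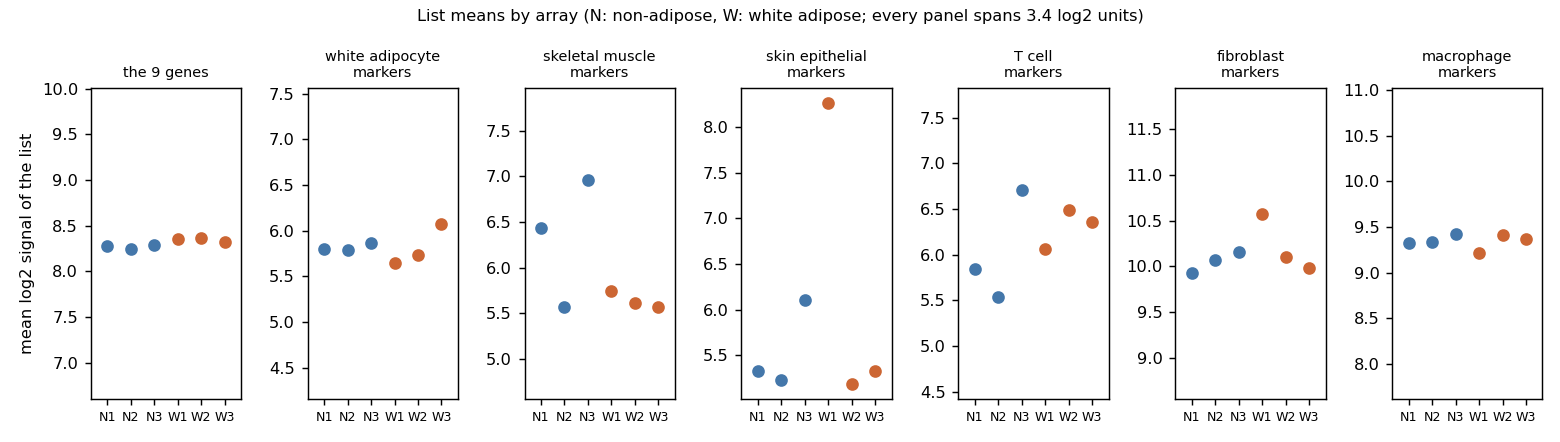
Mean log2 signal (vertical axis, the same span in every panel) of the 9 genes and of 6 marker lists on each array, with N for non-adipose (blue) and W for white adipose (orange) tumours. The 9 genes lie within 8.24 to 8.36, while skin markers reach 8.26 in W1 and muscle markers reach 6.96 in N3.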

How the data were processed

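Total RNA of 6 tumours, 3 per site and named biological replicates in the labels, was measured on 6 arrays. The authors deposited 1 value per array for 41345 probe sets, from 0.973 to 13.6 with array medians of 5.66 to 5.69, taken here as log2 signals on the deposited scale. The submitters' processing notes name Affymetrix Expression Console; version, summarisation and normalization are not given in those notes, and detection calls were not used here.

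Probe sets annotated to 1 symbol (23521) gave 22180 genes, each read by its probe set with the highest mean. Limma 3.58.1 under R 4.3.3 fitted all genes together on all 6 arrays, without a block, with Benjamini-Hochberg adjusted p-values over the whole table (threshold 0.05). Single values and correlations had exact permutation tests. The fit was tested on simulated data with 200 changed genes in each of 5 runs. It recovered 0% of log2 changes of 0.25, 28.8% of 0.5, 87.6% of 1 and 98.4% of 2. Each run mixed all these sizes, with independent noise and no array that stood apart. The larger changes make the smaller ones easier to call after adjustment. No gene was called in the tumours themselves, so these shares can overstate recovery there. The largest member difference was 0.17, so the lack of called members does not show that they were unchanged. The number of arrays limits precision.

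Named genes were the members, the 2 genes of each pathway list with the smallest unadjusted p and, from marker lists, the highest and the most different gene; others are said to be chosen after their values were seen, as was Ucp1. Members, lists and rules were chosen with earlier results of these data known. Alternatives covered probe set choice, scaling, dim genes, variance moderation, array weights, a replicate block and leaving out each array.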

Additional observations from a re-analysis of the deposited data

How the results depend on the processing

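No gene and no member was called by limma under any of the 14 alternative fits, where the count at an unadjusted p under 0.05 ran from 640 to 1800 with 1 array left out and was 841 with all arrays and 1621 with array weights. Members at an unadjusted p under 0.05 numbered 1 in the fit as reported, 0 with all probe sets fitted, with array medians subtracted or with the replicate block, 2 with array weights and 0 to 2 with 1 array left out. The median over the 9 members was 0.072 with array medians subtracted, 0.12 after quantile normalization and 0.071 to 0.097 with 1 array left out. There were 7 members with a higher mean under every other setting, and 6 to 8 with 1 array left out. Reversals came only from leaving out an array: Acadm at -0.015 and Acaa2 at -0.012 without white adipose replicate 1, and Acad9 at 0.023 without white adipose replicate 3, its range with 1 array left out being -0.084 to 0.023. The Etfb minus Etfa difference ran from 0.090 to 0.18 with 1 array left out. The labels do not say whether same-numbered tumours are paired. Deviations of same-numbered arrays correlated at 0.14, 0.064 and 0.064. Non-adipose replicates 1, 2 and 3 matched white adipose replicates 1, 2 and 2 best, which does not settle the question. The replicate block gave 1081 genes at an unadjusted p under 0.05. It cannot change a difference when both groups hold the same replicate numbers, and Etfb stayed at 0.17 with a limma adjusted p of 0.885. With 3 arrays per site the median half-width of a gene's unadjusted 95% interval, over all genes, was 0.24, which is wider than any member's difference. Several members had narrower intervals of their own, and that of Etfb alone excluded 0, with a lower bound of 0.00040.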

Other observations

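Identical values on several arrays were common in the deposited table. Of 22180 genes, 35.3% had the same value to 5 decimals on at least 2 arrays and 13.8% on at least 3. In 97.7% of the genes with such ties the shared value was one of the middle values of the 6. Among the members, Acadvl was tied on 3 arrays and Acad9 on 2. The within-site spread of Acadvl in white adipose tumours, 0.023 (SD, n = 3), includes 2 tied values.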
